A study of Mus musculus with 2 samples.

Results

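Small Cajal body-specific RNAs (scaRNAs) were followed in single-nucleus RNA-sequencing of C2C12 cells, a mouse myoblast line. The symbols Scarna2, Scarna3a, Scarna3b, Scarna6, Scarna8, Scarna9, Scarna10, Scarna13 and Scarna17 were looked up in the deposited gene list, and 8 of these 9 symbols were found among 55414 genes. Scarna3a was not found by symbol. The identifier ENSMUSG00002074853, which the GENCODE M39 annotation names Scarna3a, and a second Scarna3b entry, ENSMUSG00002076250, are given beside the 8 genes and are not in their sums. In 1 group, methanol-fixed C2C12 nuclei were incubated with yeast poly(A) polymerase (yPAP) for 25 min at 37 °C, which adds adenines to the 3′ ends of RNA and so gives oligo(dT) a place to prime on untailed RNAs too. In the other group, called standard, fixed C2C12 nuclei went into the droplets without the enzyme or the warm incubation. By the study's methods, they were counted once wash buffer was on, while yPAP nuclei were washed in another buffer and pelleted after the incubation. The enzyme, the incubation and this later wash cannot be told apart. The enzyme mix of the nuclei held the RNase inhibitor SUPERase-In, which in tissue sections, by the paper, failed to protect longer transcripts at this step. Whether this applied to these nuclei was not tested. Each group had 1 library, both from the same line.

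The main values are unique molecular identifiers (UMIs) from the authors' kallisto matrices. Nuclei were barcodes with more than 750 UMIs and less than 5% mitochondrial UMIs, 1335 in the yPAP library (1974403 UMIs) and 1123 in the standard library (1382984 UMIs). Low-UMI barcodes, which hold RNA that was not in a retained nucleus, had 1 to 100 UMIs and carried 2055642 UMIs in the yPAP library and 2394255 in the standard library. rRNA genes took 48.3% of the UMIs of yPAP nuclei and 29.3% of those of standard nuclei. The libraries shared 0 nuclear barcodes. All 7 myoblast markers looked for, among them Myod1 and Des, had UMIs in both libraries, while markers of endothelial, immune and fat cells summed to 11 UMIs in yPAP nuclei and 48 in standard nuclei. Levels are given as counts scaled to an equal total (CPM), not scaled to gene length. With 1 library in a group no test was possible, and the 95% intervals cover counting error only. Over the 2114 protein-coding genes that had 50 UMIs or more in the nuclei of both libraries, the median log2 ratio of yPAP over standard nuclei was -1.19.

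Cajal bodies are nuclear compartments that are organised by the protein coilin and in which the small nuclear RNAs (snRNAs) of the spliceosome mature. The scaRNAs guide enzymes to single bases of those snRNAs: box C/D scaRNAs direct 2′-O-methylation with fibrillarin, box H/ACA scaRNAs direct pseudouridylation with dyskerin, and composite scaRNAs carry both parts. The protein Wrap53 holds many of them in the Cajal body by binding a short element, the CAB box. Most scaRNAs are cut out of introns of other genes and have no poly(A) tail, which makes them poorly visible to oligo(dT) priming.

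The sequences below were read from GENCODE M39 transcripts on GRCm39 and are printed 5′ to 3′. The last 300 of the 414 bases of Scarna2 (chr3:108461654-108461953, minus strand) are shown because this gene carried most of the scaRNA signal, and the 70 bases of Scarna9 (chr9:15237560-15237629, minus) as a short box C/D member. Scarna6 (chr1:87712278-87712542, plus) and Scarna13 (chr12:104997334-104997608, minus) are the other genes that reached the minimum for a comparison. Scarna3a (chr1:159167853-159167992, plus) and the longer Scarna3b entry (chr12:80438387-80438525, minus) are shown as a pair of near copies. Capitals mark TGATGA, the core of the C box, and CTGA, the D box, in Scarna2 and Scarna9. They mark TGATGA and TGAG, the CAB box motif, in Scarna6, TGAG and an ACA that ends 3 bases before the 3′ end in Scarna13, and TGAG in Scarna3a and Scarna3b. The TGAG of Scarna6, at bases 259 to 262, overlaps an unmarked CTGA at bases 258 to 261. Its letters do not tell a CAB box from a D box. In Scarna13 and Scarna3b the marked TGAG overlaps an unmarked CTGA as well.
Scarna2: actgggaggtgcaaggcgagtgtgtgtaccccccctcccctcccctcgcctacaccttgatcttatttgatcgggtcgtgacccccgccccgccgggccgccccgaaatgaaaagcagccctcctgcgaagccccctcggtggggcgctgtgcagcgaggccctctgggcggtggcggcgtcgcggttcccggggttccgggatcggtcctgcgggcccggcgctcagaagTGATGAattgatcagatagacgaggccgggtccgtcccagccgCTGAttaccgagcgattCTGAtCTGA
Scarna9: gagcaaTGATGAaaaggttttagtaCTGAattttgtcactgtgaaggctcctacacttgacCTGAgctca
Scarna6: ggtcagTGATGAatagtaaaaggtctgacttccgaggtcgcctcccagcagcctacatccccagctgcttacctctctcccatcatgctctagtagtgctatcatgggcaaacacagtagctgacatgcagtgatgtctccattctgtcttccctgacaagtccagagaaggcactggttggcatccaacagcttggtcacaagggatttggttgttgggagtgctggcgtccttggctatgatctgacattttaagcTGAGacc
Scarna13: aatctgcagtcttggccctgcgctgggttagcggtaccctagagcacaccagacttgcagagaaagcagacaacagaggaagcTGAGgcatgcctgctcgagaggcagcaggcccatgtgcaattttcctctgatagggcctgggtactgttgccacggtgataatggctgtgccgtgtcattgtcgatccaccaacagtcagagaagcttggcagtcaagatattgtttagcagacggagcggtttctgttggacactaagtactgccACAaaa
Scarna3a: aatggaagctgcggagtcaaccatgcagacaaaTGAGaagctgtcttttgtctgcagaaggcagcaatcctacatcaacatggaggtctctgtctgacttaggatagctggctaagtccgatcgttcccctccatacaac
Scarna3b: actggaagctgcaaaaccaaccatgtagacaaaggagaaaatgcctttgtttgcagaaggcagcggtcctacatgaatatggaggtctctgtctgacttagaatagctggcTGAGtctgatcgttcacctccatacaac

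Scarna2 had 1 TGATGA and 4 CTGA, the last of them on its final 4 bases, and 0 TGAG. The C box core began at base 7 in Scarna6, Scarna9 and Scarna10 and at base 8 in Scarna17, and the other match was in Scarna8, an H/ACA member, at base 76. TGAG was found in 8 sequences, that is, in all but Scarna2, and overlapped a CTGA in Scarna6, Scarna9, Scarna10, Scarna13, Scarna17 and Scarna3b. ACA ended 3 bases before the 3′ end in Scarna8 and Scarna13 only among the 9. Short motifs are common. Among 1549 other genes of the snoRNA and scaRNA classes, 26.3% held TGATGA, 79.3% CTGA, 51.5% TGAG and 19.3% the ACA near the end. Of the first 414 bases of the longest transcript of each of 62587 genes, 15.3% held TGATGA and 91.2% CTGA, and of windows as long as Scarna9, 2.44% held TGATGA and 31.4% TGAG. Only the sense strand was searched, and a match describes the letters alone.

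**Figure D1:**
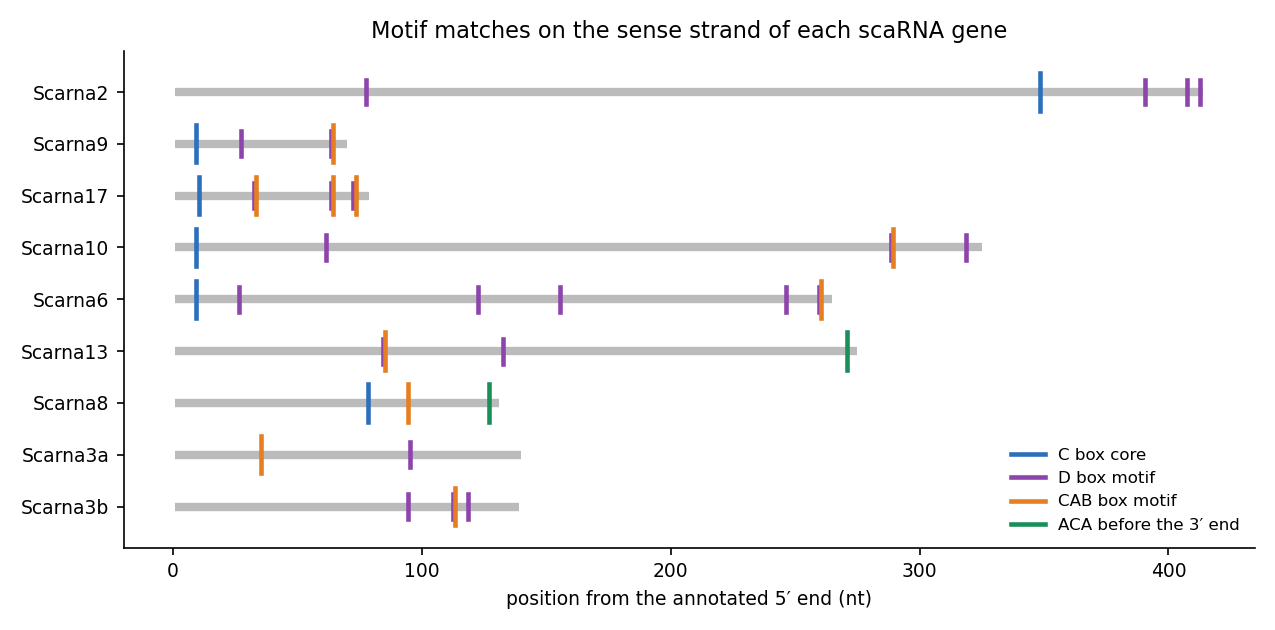
Motif matches on the sense strand of the 9 scaRNA genes, as vertical marks on a bar from the annotated 5′ end to the 3′ end (nt). TGATGA is the C box core, CTGA the D box motif and TGAG the CAB box motif, and the orange and purple marks touch where TGAG overlaps a CTGA. The TGATGA of Scarna2 starts at base 346 of 414, whereas it lies at bases 7 to 13 in Scarna6, Scarna9, Scarna10 and Scarna17.

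Which sequence a read can be given to differs between the members. Scarna2 offered 384 different 31-mers, the unit kallisto matches, and 0 of them occurred in another gene of the deposited list. All 384 occur in Gm65135, a lncRNA of GENCODE M39 that surrounds Scarna2 on the same strand but is not in that list. Scarna6 and Scarna9 shared 0 of their 235 and 40 31-mers with another gene, and Scarna8 also shared 0. In contrast, Scarna13 shared all 245 with its host transcript Snhg10 or with Mir3069, Scarna10 shared 253 of 295 with its host Ncapd2 or with Gm28967, and Scarna17 shared 40 of 49 with Gm25443, another scaRNA-class gene. Gm25443, Gm28967 and Mir3069 were listed at 0 UMIs in both libraries and both matrices. Scarna3a shared 35 of 110 with Mir1843b, likewise listed at 0. Scarna3a and the longer Scarna3b were identical at 120 of 140 aligned positions (85.7%) yet shared 0 31-mers with each other. The Scarna3b entry that carries the symbol shared all 94 31-mers with the longer entry or with Mir1843a. The values of Scarna3a, Scarna3b, Scarna10, Scarna13 and Scarna17 are therefore uncertain, since reads could be split or moved between genes.

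Scarna2 guides 2′-O-methylation of the U2 snRNA and is a box C/D scaRNA of 414 nt. It had 503 UMIs in yPAP nuclei and 6 in standard nuclei, or 254.8 CPM (interval 233 to 278) and 4.34 CPM (1.59 to 9.44). In low-UMI barcodes it had 2415 UMIs (1175 CPM) in the yPAP library and 9 (3.76 CPM) in the standard library. Both yPAP groups lay far above both standard groups, and the intervals did not overlap. In nuclei the difference was 58.7-fold, a log2 ratio of 5.88 (interval 4.74 to 7.33), and 7.07 relative to the median protein-coding gene. Over all barcodes it had 4191 and 36 UMIs, a log2 ratio of 7.51 (7.04 to 8.03). Genes were counted when both libraries together gave 20 UMIs or more, and by that minimum 1 of 1 member compared in nuclei was at least 2-fold higher with yPAP, against 1.46% of 8430 genes. Scarna2 reached the minimum through yPAP nuclei, so this count is no support for the difference.

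The other 7 genes summed to 19 UMIs in yPAP nuclei and 0 in standard nuclei, and to 181 and 7 over all barcodes. Their summed log2 ratio over all barcodes was 5.34 (4.27 to 6.68). Among the other box C/D members, Scarna9, a guide of the U2 snRNA, had 0 UMIs in the nuclei of both libraries. It had 12 in yPAP low-UMI barcodes, 0 in the standard ones, and 15 against 0 over all barcodes. That was 7.83-fold higher with the 0 taken as 3 UMIs in that library, and the interval of the log2 ratio began at 2.49. Scarna17, which guides modification of the U12 and U4 snRNAs, had 2 and 0 UMIs in nuclei, 6 and 0 in low-UMI barcodes and the same 15 against 0 over all barcodes. Both were seen with yPAP and were at 0 in the standard library, but too rarely for a comparison in nuclei.

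Of the composite scaRNAs, Scarna6 had 5 UMIs in yPAP nuclei and 0 in standard nuclei. It had 26 and 0 in low-UMI barcodes, and over all barcodes 40 against 0 was at least 20.9-fold higher with yPAP. In nuclei alone a difference of Scarna6 was not detectable at this depth, since the interval of its log2 ratio began at -0.64. Scarna10, a guide for the U5 snRNA, had 0 UMIs in the nuclei of either library, 7 and 0 in low-UMI barcodes and 9 and 1 over all barcodes, a log2 ratio of 3.82 (0.97 to 9.27).

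Among the box H/ACA scaRNAs, Scarna13 had 10 UMIs in yPAP nuclei and 0 in standard nuclei. With the 0 taken as 3 UMIs it was 2.33-fold higher (log2 interval from 0.65). It had 62 and 3 in low-UMI barcodes and 96 and 6 over all barcodes, a log2 ratio of 4.65 (3.47 to 6.13). Scarna8 had 2 and 0 UMIs in nuclei, 4 and 0 in low-UMI barcodes, and 6 and 0 over all barcodes. Scarna3b, by its symbol, was at 0 everywhere, for which 3 UMIs, the limit used here, would be 1.52 CPM in yPAP nuclei and 2.17 CPM in standard nuclei. Scarna3a, by its identifier, had 1 and 0 UMIs in nuclei, 4 and 1 in low-UMI barcodes and 6 and 1 over all barcodes, and the longer Scarna3b entry had 1 UMI, in the standard library. Over all barcodes, 3 of 3 members with at least 20 UMIs (Scarna2, Scarna6 and Scarna13) were at least 2-fold higher with yPAP, against 2.52% of 13874 genes. Scarna6 and Scarna13 reached that minimum only through the yPAP library, so both had to differ there, and the count is no support for the difference.

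**Figure D2:**
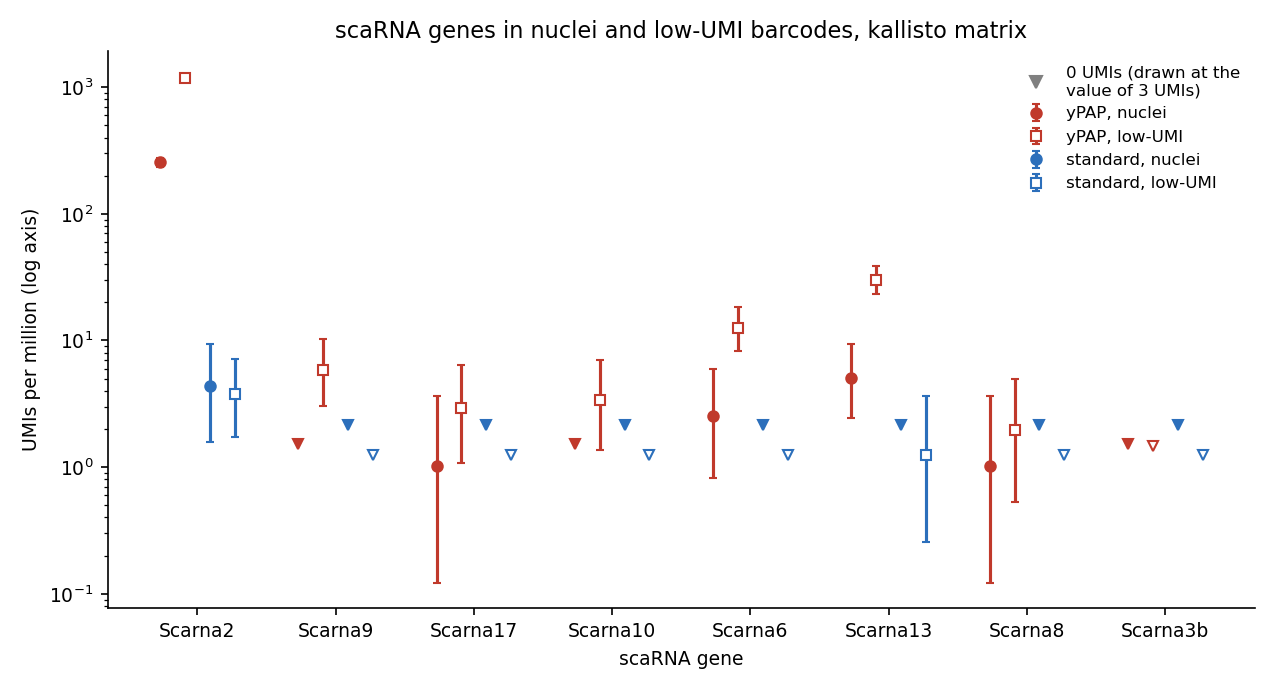
CPM of the 8 scaRNA genes (log axis, kallisto matrix) in nuclei (filled) and low-UMI barcodes (open) of the yPAP library (red) and the standard library (blue), with exact 95% intervals of counting error. Triangles stand for 0 UMIs and are drawn at the value of 3 UMIs. Scarna2 stands at 254.8 and 1175 in the yPAP groups and at 4.34 and 3.76 in the standard groups, and Scarna3b is at 0 in all 4 groups.

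Next, nuclei were set against low-UMI barcodes within the yPAP library. Scarna2 was 4.61-fold higher in CPM in the low-UMI barcodes, a log2 ratio of 2.21 (2.07 to 2.35). Of its 4191 UMIs in the library 57.6% were in low-UMI barcodes and 503 UMIs in nuclei, whereas those barcode groups held 30.4% and 29.2% of all UMIs. Scarna13 and Scarna6 were higher there as well, by log2 ratios of 2.57 (1.60 to 3.70) and 2.32 (0.92 to 4.06). With the 0 of nuclei taken as 3 UMIs, Scarna9 (12 UMIs against 0) was 3.84-fold higher, with a log2 interval from 1.42. Scarna10 (7 against 0) was 2.24-fold higher, with a log2 interval from 0.47. For Scarna8 (4 against 2 UMIs) and Scarna17 (6 against 2) the log2 ratios were 0.94 and 1.53, with intervals from -1.86 to 4.41 and from -0.96 to 4.87 that include 0. With nuclei of over 1500 UMIs only, the value of Scarna10 fell to a log2 ratio of 0.19 with an interval from -0.50. Against barcodes with over 100 and up to 500 UMIs in place of 1 to 100, Scarna6 stood at 0.65 (-1.15 to 2.61) and Scarna13 at 0.90 (-0.28 to 2.16). By the minimum of 20 UMIs, 3 of 3 members were at least 2-fold higher there, against 18.5% of 8018 genes. Scarna2 reached it in both barcode groups and Scarna6 and Scarna13 only through the low-UMI barcodes, and the median log2 ratio of all genes compared was 0.39.

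In the standard library, Scarna2 had 6 UMIs in nuclei and 9 in low-UMI barcodes, a log2 ratio of -0.21 (-1.86 to 1.56). The summed 8 genes had 6 and 12 UMIs there, at a log2 ratio of 0.21 (-1.32 to 1.91), against 2.22 (2.08 to 2.36) in the yPAP library. The yPAP interval lay above the standard one. No member reached 20 UMIs over the nuclei and low-UMI barcodes of the standard library together, where 10.2% of 10730 genes were at least 2-fold higher in low-UMI barcodes. Mitochondrial UMIs also moved with the barcode groups, from 0.38% in nuclei to 0.91% in low-UMI barcodes of the yPAP library and from 0.34% to 1.24% in the standard library. rRNA was 48.3% and 55.7% in the yPAP groups and 29.3% and 28.3% in the standard groups, and the part of either in the scaRNA result was not tested.

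Barcodes were then divided by their depth. In the yPAP library, Scarna2 was at 1046 CPM in barcodes with 1 to 10 UMIs, 1187 with 11 to 100, 523 with over 100 and up to 500, 305 with over 500 and up to 750 and 254.8 above 750. Each depth above 100 UMIs had a lower share than the one before it, although the intervals of the deepest pair (266 to 349 and 233 to 278) overlapped. The other 7 genes together followed at 33.5, 59.1, 18.3, 11.2 and 9.62 CPM, and the box C/D snoRNAs (105 Snord genes) at 7134, 8776, 2448, 1742 and 1341. Mitochondrial genes also fell with depth, from 16930 CPM in the shallowest barcodes to 3774 in nuclei. In the standard library Scarna2 was at 0 in the shallowest barcodes and between 2.95 and 4.34 CPM in the other depths, with overlapping intervals.

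**Figure D3:**
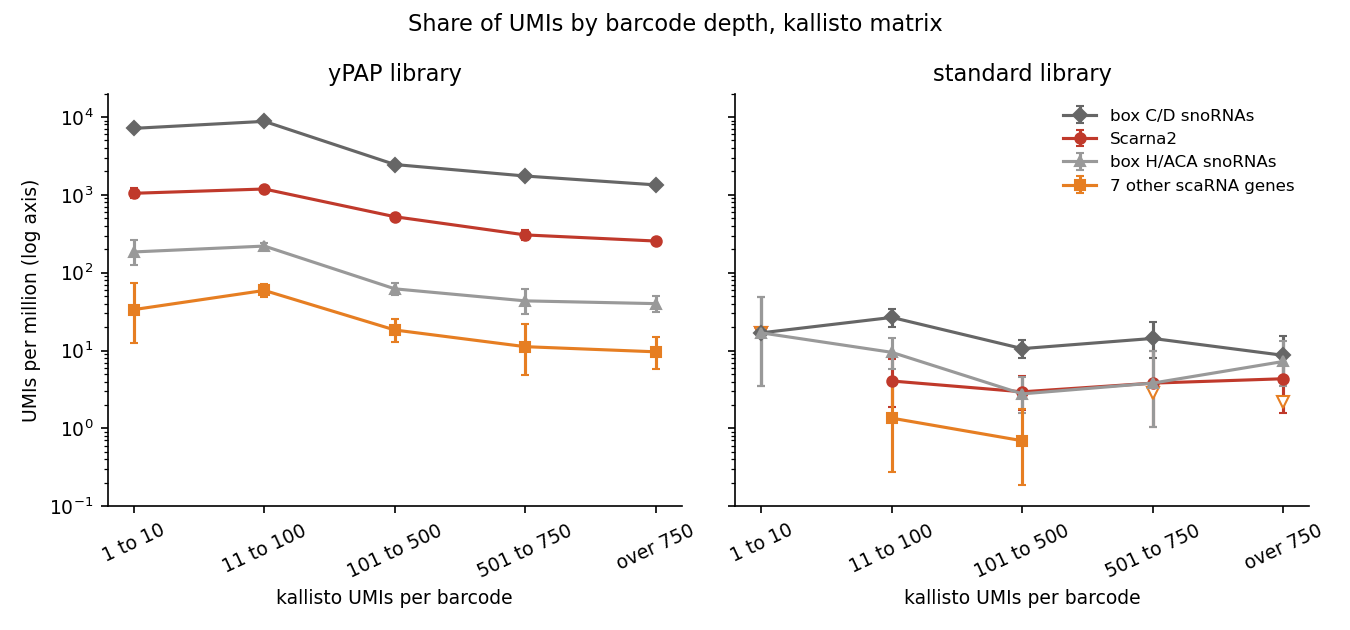
CPM (log axis, kallisto matrix) by the depth of the barcode for Scarna2, the other 7 scaRNA genes together, box C/D snoRNAs and box H/ACA snoRNAs, in the yPAP library (left) and the standard library (right). Bars are exact 95% intervals of counting error, and open triangles mark 0 UMIs at the value of 3 UMIs. All 4 lines peak at 11 to 100 UMIs with yPAP, where Scarna2 reaches 1187, and are lowest in nuclei.

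The decline with depth was smaller in the STAR matrices, which cover 3791 barcodes of the yPAP library and 8474 of the standard library. There Scarna2 was at 212 CPM in yPAP barcodes with over 100 and up to 500 kallisto UMIs, 187 with over 500 and up to 750 and 168 in nuclei. In kallisto the same barcodes gave 466, 322 and 255 CPM. Both routes placed nuclei lowest, by 1.26-fold and 1.83-fold against the first of these depths. The STAR matrix held only 14 yPAP barcodes with 100 UMIs or fewer, so it says little of them.

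The share of nuclei with Scarna2 was compared after each nucleus was thinned to 750 UMIs. It was 17.1% of 1335 yPAP nuclei (interval 15.1% to 19.2%) and 0.45% of 1120 standard nuclei (0.15% to 1.04%), with 3 standard nuclei too shallow. Without thinning the shares were 28.8% and 0.53%, at median depths of 1088 and 996 UMIs. With any of the 8 genes counted, the thinned share was 17.8% and 0.45%, so Scarna2 alone accounted for 228 of 237 yPAP nuclei. A yPAP nucleus held at most 4 Scarna2 UMIs in kallisto, and 296 of the 384 nuclei with any held 1. Barcodes with few UMIs had a higher CPM of Scarna2 than nuclei did, and how many of the UMIs in nuclei came from free RNA was not tested.

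**Figure D4:**
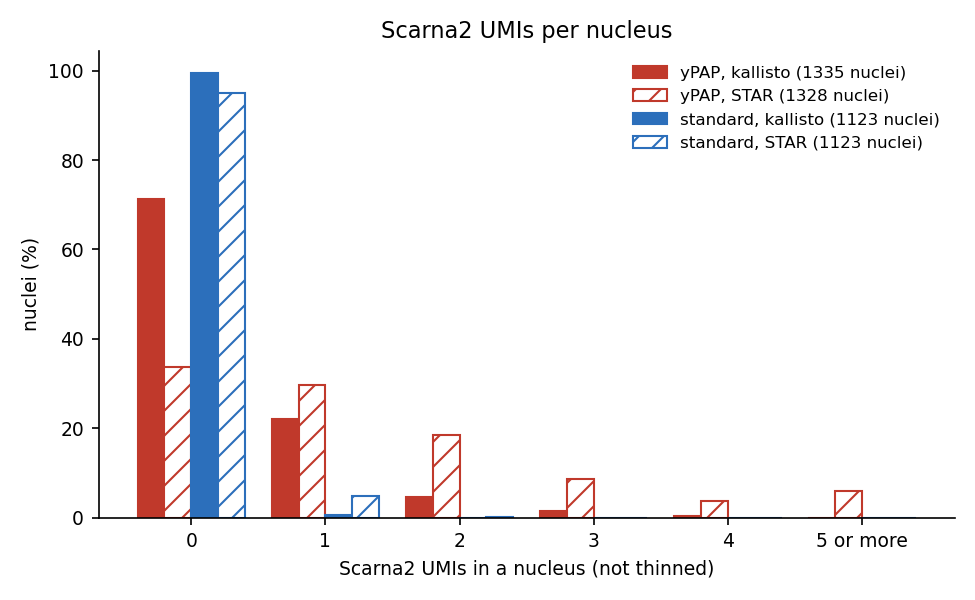
Percent of nuclei by their number of Scarna2 UMIs, not thinned, in the yPAP (red) and standard (blue) libraries, for the kallisto matrix (filled bars) and the STAR matrix (hatched bars). In kallisto 951 of 1335 yPAP nuclei have 0 and none has over 4, and in STAR 447 of 1328 have 0 and the highest count is 13. The STAR matrix holds more UMIs per nucleus.

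Within the yPAP nuclei, the share of Scarna2 showed no order by depth beyond counting error. It was at 297 CPM (236 to 370) in the 334 shallowest nuclei, at 267 and 263 CPM in the middle ones and at 235 CPM (205 to 268) in the 334 deepest. The intervals of the shallowest and the deepest nuclei overlapped. Nuclei could also be divided by ENSMUSG00002075551, a gene treated here as rRNA-like. It was at 0 in 828 yPAP nuclei and at 15 or more UMIs in the other 507. Scarna2 was at 267 CPM (236 to 300) in the former and 242 (212 to 276) in the latter. With the UMIs of that gene left out of the total, the latter stood at 351 (307 to 399). The order of the 2 sets thus depended on the total used, and in the second case their intervals did not overlap. In the STAR matrix the values were 173 (163 to 184) and 162 (151 to 173).

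The counting route mattered for most members. Scarna2 had 1939 UMIs in yPAP nuclei and 56 in standard nuclei in STAR, 168 and 8.98 CPM, a log2 ratio of 4.23 (3.84 to 4.64) that lay below the interval of kallisto. The median protein-coding gene was lower in STAR as well, at -1.92 against -1.19 in kallisto. Relative to it Scarna2 stood at 6.15 (5.76 to 6.56) in STAR, within the kallisto interval of 5.94 to 8.52. Scarna17 had 40 UMIs in yPAP nuclei and 0 in standard nuclei in STAR, and 92 against 0 over all its barcodes, at least 30.8-fold higher with yPAP. Its kallisto value in yPAP nuclei was 2 UMIs. Scarna6, Scarna8, Scarna9, Scarna10, Scarna13 and both kinds of Scarna3 entry were at 0 in STAR in every barcode of both libraries. In STAR, 66.3% of yPAP nuclei and 4.90% of standard nuclei held Scarna2, not thinned. The yPAP nuclei held 11545281 UMIs in STAR and 1974403 in kallisto, and the standard nuclei 6237950 and 1382984. These shares are thus not at equal depth, neither between the routes nor between the libraries.

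The members at 0 in STAR all lie inside another gene of the deposited list on the same strand. Scarna6 lies in Atg16l1, an autophagy gene, Scarna8 (chr4:86504690-86504820, minus strand, GRCm39) in Haus6, Scarna9 in Cep295 and Scarna10 (chr6:125163322-125163646, minus) in Ncapd2, a condensin gene. Scarna13 lies in the lncRNA Snhg10, Scarna3a in Cop1 and Scarna3b in Dcaf5. Scarna2 and Scarna17, the members with STAR UMIs, lie in no other gene of that list, although GENCODE M39 now places a lncRNA around each. Among the other snoRNA- and scaRNA-class genes with at least 1 kallisto UMI in yPAP nuclei, 132 of 135 that lay inside another gene were at 0 in STAR (97.8%), and 0 of 8 that did not. The 3 exceptions, named after their values were seen, were Snord118, Snora43 and ENSMUSG00002076990.

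**Figure D5:**
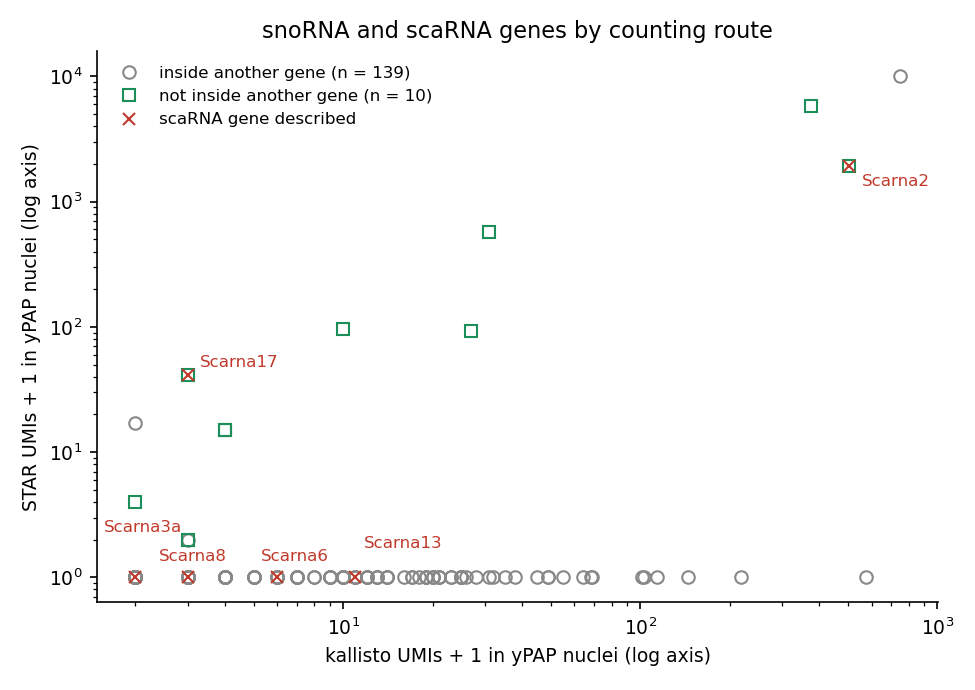
UMIs plus 1 in yPAP nuclei by kallisto (horizontal log axis) and STAR (vertical log axis) for each snoRNA- or scaRNA-class gene with at least 1 kallisto UMI there, split by whether the gene lies inside another gene of the deposited list on the same strand (grey circles) or not (green squares). Crosses mark the scaRNA genes described: Scarna2 and Scarna17 stand at 1939 and 40 STAR UMIs, while Scarna3a, Scarna6, Scarna8 and Scarna13 lie on the line of 0 STAR UMIs.

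The protein-coding host genes were lower, not higher, in yPAP nuclei, as were most genes. Of all 8430 genes compared 75.7% were at least 2-fold lower there. Of the hosts, Atg16l1 had 69 UMIs in yPAP nuclei and 179 in standard nuclei, a log2 ratio of -1.89 (-2.31 to -1.48). Haus6 stood at -2.33, Cep295 at -1.70, Ncapd2 at -1.22, Cop1 at -3.13 and Dcaf5 at -0.90, all 6 with intervals below 0. Relative to the median protein-coding gene they lay between -1.94 for Cop1 and 0.30 for Dcaf5. On that scale the intervals of Dcaf5 (-0.40 to 0.99) and Ncapd2 (-0.41 to 0.35) included 0. Those of Atg16l1, Haus6, Cep295 and Cop1 lay below it. Snhg10 had 1 UMI with yPAP and 0 in the standard nuclei, against 10 and 0 of Scarna13, its nested scaRNA. Over all barcodes Atg16l1 had 276 and 1258 UMIs, the reverse order of Scarna6 with 40 and 0. Between low-UMI barcodes and nuclei of the yPAP library, Atg16l1, Haus6 and Cop1 were higher in the former by log2 ratios of 0.51 (0.05 to 0.97), 1.15 (0.35 to 2.01) and 1.26 (0.02 to 2.66), whereas Cep295, Ncapd2 and Dcaf5 stood at 0.12, 0.12 and -0.20 with intervals that include 0.

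The nucleolar guides were the RNAs most like the scaRNAs. Box C/D snoRNAs, most of which guide methylation of rRNA, had 2647 UMIs in yPAP nuclei and 12 in standard nuclei, a log2 ratio of 7.27 (6.46 to 8.23). Snord118 and Snord13, which are not guides of rRNA methylation, made up 1123 of the 2647, and without them the ratio was 6.60 (5.76 to 7.61). Box H/ACA snoRNAs (38 Snora genes), which guide pseudouridylation of rRNA, had 79 and 10, a log2 ratio of 2.47 (1.51 to 3.58). The 8 scaRNA genes had 522 and 6, a log2 ratio of 5.93 (4.80 to 7.38). In kallisto nuclei that interval lay above H/ACA and overlapped C/D. In STAR nuclei the scaRNAs stood at 4.26 (3.87 to 4.67), C/D at 7.92 (7.45 to 8.42) and H/ACA at 2.92 (1.95 to 4.08). There the scaRNA interval lay below C/D and overlapped H/ACA. Over all kallisto barcodes the scaRNAs, at 7.32 (6.88 to 7.78), lay below C/D at 8.12 (7.89 to 8.36) and above H/ACA at 4.30 (3.90 to 4.73). Without Scarna2 the ratio in kallisto nuclei was 2.15 (interval from 1.71), with the 0 taken as 3 UMIs. It rests on 19 UMIs against 0. Low-UMI barcodes against yPAP nuclei gave 2.22 (2.08 to 2.36) for the scaRNAs, 2.69 (2.63 to 2.75) for C/D and 2.44 (2.09 to 2.80) for H/ACA, so the scaRNA interval lay below that of C/D and overlapped that of H/ACA. Without Scarna2 the other 7 genes stood at 2.56 (1.86 to 3.35), which overlapped both.

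The genes whose pattern over the 4 barcode groups was nearest to the summed scaRNAs were Snord72, Snord43 and Gm24616. The measure was the Euclidean distance of centred log2 CPM over 4 values, each from 1 library, among 4817 genes with at least 20 UMIs in yPAP nuclei, and the distances were 0.77, 0.82 and 0.87. Snord72, a box C/D snoRNA, had 144 UMIs in yPAP nuclei, 0 in standard nuclei, 828 in yPAP low-UMI barcodes and 1 in standard ones. Snord43 had 135, 0, 687 and 2, and Gm24616 had 218, 0, 1371 and 2. All 3 were at 0 in STAR.

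The scaRNAs act on snRNAs. In kallisto the snRNA class had 197 UMIs in yPAP nuclei and 39 in standard nuclei, a log2 ratio of 1.82 (1.32 to 2.36), below the interval of Scarna2. In STAR it had 1797 and 66, a log2 ratio of 3.88 (3.52 to 4.26), which overlapped the STAR interval of Scarna2. Low-UMI barcodes against yPAP nuclei gave 1.65 (1.42 to 1.89) in kallisto. In kallisto none of the 14 Rnu genes reached 20 UMIs in nuclei, and only Rnu11 and Rnu12, of the minor spliceosome, had any. Rnu11 had 8 and 3 UMIs, at a log2 ratio of 0.90 (-1.16 to 3.45), and Rnu12, a target of Scarna17, had 4 and 0. In STAR, Rnu12 had 130 and 0 UMIs in nuclei and Rnu11 had 77 and 6. Rnu2-10 had 14 and 0 there, Rnu5g 8 and 0 and Rnu6 1 and 0.

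Proteins of the Cajal body and of the scaRNA particles were also examined, from a list of 25 genes that were all in the deposited list. Of the 19 with at least 20 UMIs, 0 were at least 2-fold higher with yPAP, against 1.46% of all genes compared. On the other side 11 were at least 2-fold lower, against 75.7%. Their median log2 ratio was -1.08, and that of all genes was -1.41. Coil, the gene of coilin, had 21 UMIs with yPAP and 25 in standard nuclei, a log2 ratio of -0.77 (-1.67 to 0.13). Wrap53 had 15 and 21, at -0.999 (-2.06 to 0.03), and Dkc1, the gene of dyskerin, had 65 and 110, at -1.27 (-1.74 to -0.82). Relative to the median protein-coding gene 1 gene was at least 2-fold higher, Naf1, an H/ACA assembly factor, at 1.33 (0.50 to 2.19), against 3.63% of all genes compared. On that scale 4 were at least 2-fold lower, against 11.6%: Nhp2 at -1.37 (-2.81 to -0.15), Gemin2 at -1.36 (-2.60 to -0.28), Gemin7 at -1.16 (-2.61 to 0.09) and Ddx20 at -1.06 (-2.32 to 0.05). Terc, the telomerase RNA and itself an H/ACA RNA with a CAB box, was at 0 in both libraries and both matrices.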

How the data were processed

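The members, gene lists and naming rule were chosen with earlier results of these data known. Per the study's methods and the submitters' processing notes, the authors trimmed reads with cutadapt 3.4. They pseudoaligned them with kallisto 0.48.0 and bustools 0.41.0 (31-mers, strand-aware), and these deposited matrices list every barcode with UMIs as estimated counts (1.10% and 2.65% of entries were not whole in the yPAP and standard libraries). The authors also aligned them with STAR 2.7.10a, and these deposited matrices give UMIs as whole counts for some barcodes, chosen by a criterion not given in the sources used here. Both used GRCm39 and GENCODE M28. Neither is normalized.

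Here UMIs were summed per gene and barcode group and rounded. Doublets were not removed. Intervals are exact (Clopper-Pearson for shares, conditional Poisson for ratios), a 0 was set to 3 UMIs, and no ratio was given where both counts were at most 3. Coordinates, classes and hosts came from GENCODE M39 (54749 genes matched). Named were all members and hosts, listed Cajal body and Rnu genes, other scaRNA-class genes with at least 3 UMIs, and the 3 genes of nearest pattern. Code (Python 3.11.15, scipy 1.17.1, Biopython 1.88) was tested on simulated data.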

Additional observations from a re-analysis of the deposited data

How the results depend on the processing

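No paired analysis was possible because there was 1 library on each side, and for the same reason none could be left out in turn. No value whose interval excluded 0 changed its sign. With nuclei of over 1500 UMIs, Scarna8 and Scarna3a in low-UMI barcodes against yPAP nuclei went from 0.94 and 1.94 to -0.61. Their intervals included 0 in both settings, and the -0.61, with a 0 taken as 3 UMIs, shows no direction. Of the alternatives, 62 of 89 values moved by less than their counting interval or, for counts, by at most 1.5 times. In nuclei, the summed scaRNAs stood at a log2 ratio of 5.93 and at 4.26 in STAR. Without Scarna2 they stood at 2.15 (interval from 1.71), with the 0 taken as 3 UMIs. Relative to the median protein-coding gene they stood at 7.12 (5.99 to 8.57) in kallisto and 6.18 (5.79 to 6.59) in STAR, with overlapping intervals. In low-UMI barcodes against yPAP nuclei they stood at 2.22, at 2.03 for barcodes of 1 to 10 UMIs, 1.03 for barcodes over 100 and up to 500 UMIs, 1.80 in STAR (14 shallow barcodes), 2.46 scaled without rRNA and mitochondrial UMIs, 1.88 when rRNA-like genes were left out as well, and 2.56 without Scarna2. The number of members at least 2-fold higher in yPAP nuclei was 1 of 1 compared, 2 of 2 in STAR and 2 of 3 with no minimum per gene. The number higher in low-UMI barcodes was 3 of 3, and 2 of 2 in STAR with its 14 shallow barcodes. It was 1 of 1 for barcodes of 1 to 10 UMIs and 1 of 2 for barcodes of over 100 and up to 500 UMIs. The shares of all genes were 1.46% and 18.5% in the main settings and are not given for the others. In STAR, Scarna17 had 40 UMIs against 0 and reached the minimum only through yPAP nuclei. These counts are therefore no support for a difference. yPAP nuclei with a scaRNA UMI made up 17.8%, 29.7% without thinning, 13.4% thinned to 500 UMIs and 66.9% in STAR. For standard nuclei the share was 0.45%, and 4.90% in STAR. The STAR shares were not thinned and rest on more UMIs per nucleus than those of kallisto. The cause of these shifts was not tested. Box C/D snoRNAs in low-UMI barcodes against yPAP nuclei stood at 2.84 (2.77 to 2.92) without Snord118 and Snord13. The settings without Scarna2, without these snoRNAs, without rRNA-like genes and over all barcodes were chosen after seeing the data. The rRNA-like genes included ENSMUSG00002075551. Depth limits the 7 genes other than Scarna2, which had 19 UMIs in yPAP nuclei.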

Other observations

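Other genes of the scaRNA class with at least 3 UMIs in the nuclei of a library were Gm25395, Gm22009, Gm25492, Gm24289 and Gm23119. Gm23119, like Scarna2 inside no other gene of the deposited list, had 26 UMIs in yPAP nuclei and 1 in standard nuclei, a log2 ratio of 4.19 (1.58 to 9.54), and 91 and 7 in STAR. Unlike Scarna2 it was not higher in low-UMI barcodes of the yPAP library, with 25 UMIs there and a log2 ratio against nuclei of -0.11 (-0.97 to 0.73). The difference from Scarna2, which stood at 2.21 (2.07 to 2.35), was not tested beyond these intervals.

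The other 4 lie inside a host gene and were at 0 in STAR. Gm24289, in Tipin, had 82 UMIs over all yPAP barcodes and 4 over all standard barcodes, a log2 ratio of 5.01 (3.59 to 6.92). Gm25492, in Bud23, had 55 and 0, 28.7-fold higher with yPAP with the 0 taken as 3 UMIs (log2 interval from 4.50). Gm22009, in Kpna4, had 38 and 9, at 2.73 (1.65 to 3.96), and Gm25395, in Atg16l1 like Scarna6, had 16 and 6, at 2.06 (0.64 to 3.70). Low-UMI barcodes against yPAP nuclei gave 2.92 (1.78 to 4.30) for Gm24289, 2.91 (1.56 to 4.61) for Gm25492, 2.53 (0.75 to 4.93) for Gm22009 and 0.36 (-1.36 to 2.16) for Gm25395.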
